A study of Mus musculus with 6 samples.

Results

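The 7 genes described here are mouse genes of the 2-5A synthetase family: Oas1a, Oas1b, Oas1g, Oas2, Oas3, Oasl1 and Oasl2. They were taken by symbol from the 18182 genes of the files, and all 7 were present. The libraries came from a lung cancer line of the mouse, Lewis lung carcinoma (LLC), whose cells carried red fluorescent protein (RFP) and grew as tumours under the skin of wild type C57BL/6 mice. The cells of 3 libraries (LLC alone) came from tumours of LLC-RFP cells injected by themselves, and those of the other 3 (LLC with BMSCs) from tumours of LLC-RFP cells injected together with bone marrow-derived mesenchymal stem cells. In both groups the RFP-positive cells were sorted from the primary tumours by flow cytometry once these had reached a set size, and mRNA was sequenced, so the comparison asks how co-injected BMSCs alter the transcriptome of the tumour cells. Per the methods, allografts of LLC cells were grown in female mice at an age of 6 weeks. That passage is on luciferase-carrying rather than RFP-carrying cells and names the co-injected BMSCs as murine. The paper's mouse BMSCs came from C57BL/6 mice. The number of animals behind each library was not found in the methods or in the labels. Because nothing says that libraries came from separate animals, p values measure the spread between these libraries only, which may be technical.

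2-5A synthetases are sensors of double-stranded RNA whose genes are induced by interferons. Bound to double-stranded RNA, an active synthetase joins ATP molecules into short 2',5'-linked chains of adenylate (2-5A), a second messenger that leads to the breakdown of RNA of virus and cell. In tumours the same genes are best known as part of the interferon-stimulated program. Oas1a and Oas1g encode active short synthetases, Oas2 and Oas3 encode larger proteins built of repeated synthetase units, and the 2 Oas-like genes encode proteins with a tail that resembles ubiquitin. Of these, Oasl2 keeps synthetase activity and Oasl1 lacks it, and Oasl1 is known as a negative regulator of Irf7 translation. Oas1b carries a premature stop codon in C57BL/6 and most other laboratory strains.

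All of these genes lie on chromosome 5. In the RefSeq order of protein-coding genes and transcribed pseudogenes, Oas2, Oas3, Oas1e, Oas1c, Oas1b, Oas1f, Oas1h, Oas1g, Oas1a and Oas1d are direct neighbours in that sequence, and Oasl2 and Oasl1 form a separate neighbouring pair. Promoter windows from 250 bases before to 50 bases after the annotated start (RefSeq, GRCm38.p6) were at hand for 5 of the 7 members, Oas1a, Oas1g, Oas3, Oasl1 and Oasl2. These windows were searched on both strands for GAAANNGAAA, the core of the interferon-stimulated response element, which a complex that holds STAT2 and IRF9 is known to bind. The letters were found in 3 of the 5 windows, against 3.44% of all 32851 windows and 3.12% of the 13057 windows of genes tested below. The following stretches, from 150 bases before to 30 bases after the start, show where the matches sit, with each match in capitals. Oas1a (chr5:120907496-120907675, minus strand), Oas1g (chr5:120887584-120887763, minus strand) and Oas3 (chr5:120777630-120777809, minus strand) are the members with a match. Oasl2 (chr5:114896784-114896963, plus strand) is shown as a member with none, and Oas1c (chr5:120812485-120812664, minus strand) as a neighbour outside the 7 that carries one.
Oas1a: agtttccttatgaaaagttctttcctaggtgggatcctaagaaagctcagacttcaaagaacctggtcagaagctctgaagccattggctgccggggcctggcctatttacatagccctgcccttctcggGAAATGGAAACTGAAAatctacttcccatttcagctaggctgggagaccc
Oas1g: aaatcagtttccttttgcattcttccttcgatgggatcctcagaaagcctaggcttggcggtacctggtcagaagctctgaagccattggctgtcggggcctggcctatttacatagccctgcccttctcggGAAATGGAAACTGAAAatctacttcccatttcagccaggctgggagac
Oas3: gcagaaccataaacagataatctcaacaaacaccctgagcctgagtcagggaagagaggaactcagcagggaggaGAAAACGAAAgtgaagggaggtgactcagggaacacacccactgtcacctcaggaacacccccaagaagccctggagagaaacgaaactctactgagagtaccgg
Oasl2: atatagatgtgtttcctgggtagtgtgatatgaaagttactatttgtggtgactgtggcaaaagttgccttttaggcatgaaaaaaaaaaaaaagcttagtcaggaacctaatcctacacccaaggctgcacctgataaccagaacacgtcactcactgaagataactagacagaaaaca
Oas1c: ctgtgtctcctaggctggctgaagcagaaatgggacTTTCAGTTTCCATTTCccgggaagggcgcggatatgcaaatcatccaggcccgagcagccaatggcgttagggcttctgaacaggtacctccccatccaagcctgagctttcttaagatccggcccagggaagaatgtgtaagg
In Oas1a the capitals hold 2 overlapping matches that span 16 bases, from base 20 to base 5 before the start. Oas1g has the same 16 bases, from base 18 to base 3 before the start. When both windows were laid side by side at this match, 207 of 298 bases were identical (69.5%). The Oas1c window has the same 16 bases on the opposite strand and farther out, from base 114 to base 99 before the start, and windows with 2 or more matches were 0.225% of all windows. Oas3 has a single match from base 75 to base 66 before the start. No match was found in the windows of Oasl1 and Oasl2. A match of letters is a description of the sequence and does not show binding.

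The libraries held 33476347 to 46189113 estimated counts on genes, and 13353 genes passed the filter on low counts and were tested with edgeR's quasi-likelihood test. Of the tested genes, 31.5% were higher in LLC with BMSCs at an adjusted p under 0.05 and 31.3% were lower, so a call in itself was common here. LLC alone replicate 3 stood apart from the other two of its group (chi-square per gene 56.9 and 59.3, against 4.69 between replicates 1 and 2), and LLC with BMSCs replicate 1 less so (18.9 and 19.3, against 2.98). With any 1 library left out, all 7 members were still called higher, and no log2 fold change of a member moved by more than 0.13. Without LLC alone replicate 3, that of Oas1g was 2.66 in place of 2.54 and that of Oas2 was 8.07 in place of 8.13. The cells were checked against markers of carcinoma. Krt8, a keratin of simple epithelia, was at 95.3 ± 5.98 FPKM in LLC alone (SD, n = 3; FPKM values are fragments scaled for the transcript's length and the library's total) and Vim, the mesenchymal filament vimentin, at 887 FPKM. In contrast, the defining epithelial genes Krt18 and Epcam were below 1 FPKM in every library. With BMSCs, Krt8 was higher, at 110 ± 2.85 FPKM (edgeR adjusted p = 0.0374), and Vim lower, at 792 ± 33.8 FPKM (edgeR adjusted p = 0.0378). Krt18 was 7.5-fold higher by counts (edgeR adjusted p = 0.000221), and Epcam was not tested.

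All 7 members were tested, and all 7 were higher in LLC with BMSCs (edgeR, adjusted p from 3.71e-08 to 1.72e-06), against the 31.5% of all tested genes. All 7 also passed a stricter rule, an adjusted p below 0.001 together with a doubling or more, which 6.81% of the tested genes passed in the upward direction. The FPKM ranges of the 2 groups did not overlap for any member, with every LLC with BMSCs library above every LLC alone library, as for 37.0% of the tested genes. By the exact permutation test on FPKM, each member gave a two-sided p = 0.1, the smallest that 3 libraries against 3 allow. The median log2 fold change of the 7 was 3.09 (also with Oas2 at the low end of its counting interval), and that of all tested genes was 0.01. In bulk RNA, more cells that express a gene and more RNA per cell cannot be told apart.

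**Figure D1:**
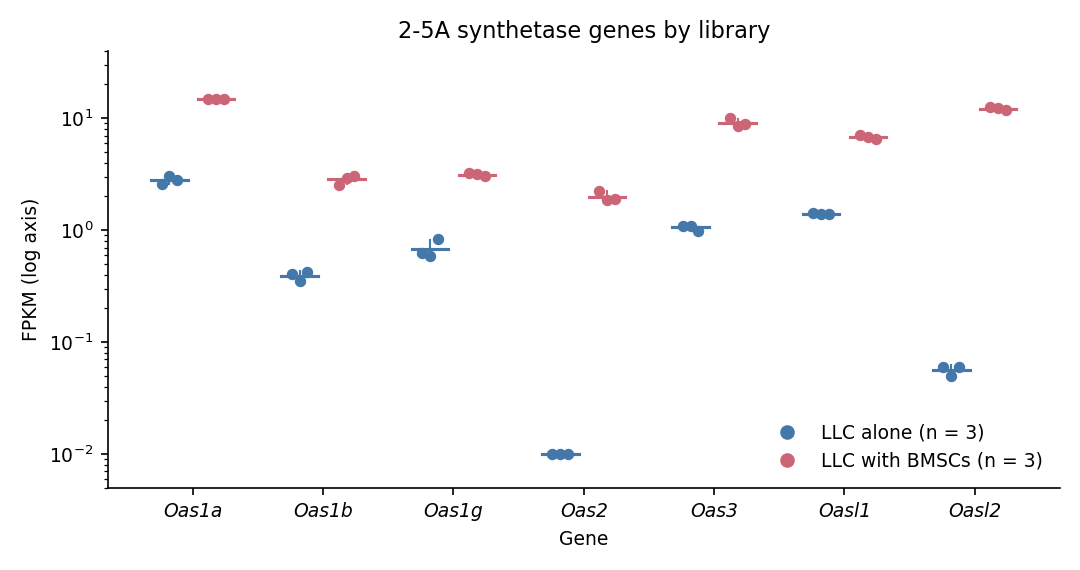
FPKM of the 7 synthetase genes in each of the 6 libraries, on a log axis; points are libraries, horizontal lines group means and vertical lines the SD (n = 3 per group). For each of the 7 genes the LLC with BMSCs libraries lie above the LLC alone libraries, from 2.58 to 3.05 against 14.7 to 15.0 FPKM for Oas1a and from 0.05 to 0.06 against 11.9 to 12.5 FPKM for Oasl2.

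Oas1a (NCBI gene 246730) had the highest level of the 7 in both groups. It was at 2.58, 3.05 and 2.83 FPKM in LLC alone replicates 1 to 3 and at 14.7, 15.0 and 14.8 FPKM in LLC with BMSCs replicates 1 to 3. The 3 libraries with BMSCs were nearly equal and all lay far above those of LLC alone. Oas1a was thus 5.20-fold higher by counts (log2 fold change 2.38, SE 0.0785, edgeR adjusted p = 5.06e-07).

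Oas1g (NCBI gene 23960), which is next to Oas1a, was at 0.62, 0.59 and 0.83 FPKM in LLC alone. In LLC with BMSCs it was at 3.23, 3.15 and 3.02 FPKM. LLC alone replicate 3 stood somewhat above the other two, and the groups did not overlap. The fold by counts was 5.81 (log2 fold change 2.54, SE 0.112, edgeR adjusted p = 1.72e-06).

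Oas1b (NCBI gene 23961), which is known for flavivirus resistance in wild mice, was the lowest of the 3 Oas1 genes, at 0.41, 0.35 and 0.42 FPKM in LLC alone. With BMSCs it was at 2.54, 2.95 and 3.05 FPKM, again with no overlap. It had the largest rise of the 3, 8.91-fold by counts (log2 fold change 3.16, SE 0.106, edgeR adjusted p = 5.27e-07).

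Oas3 (NCBI gene 246727) encodes the largest synthetase and is known in human cells as the main source of 2-5A. Its level was 1.08, 1.10 and 0.99 FPKM in LLC alone and 10.02, 8.54 and 8.81 FPKM in LLC with BMSCs. Replicate 1 with BMSCs was the highest library, and the groups were far apart. By counts the rise was 8.51-fold (log2 fold change 3.09, SE 0.0898, edgeR adjusted p = 2.88e-07).

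Oas2 (NCBI gene 246728), a synthetase of intermediate size, was close to undetected in LLC alone. Each of those libraries held 1 count of Oas2, listed as 0.01 FPKM, while the LLC with BMSCs libraries held 381, 309 and 317 counts, or 2.25, 1.84 and 1.90 FPKM. It rose from the detection limit to a level that was still the lowest of the 7. The 3 counts of LLC alone set against 1007 with BMSCs, scaled for depth, gave a ratio of 314 with a 95% interval of 107 to 1530, which covers counting error only. The test across all genes called it higher (edgeR adjusted p = 2.66e-07), but its fitted log2 fold change of 8.13 rests on these few counts and on the prior count of the fit.

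Oasl2 (NCBI gene 23962) showed the second large rise from almost nothing. It held 8, 5 and 8 counts in LLC alone, at 0.06, 0.05 and 0.06 FPKM, and 1705, 1655 and 1594 counts in LLC with BMSCs, at 12.5, 12.2 and 11.9 FPKM. Both groups were tight, and with BMSCs Oasl2 was second only to Oas1a. The ratio of the summed counts, scaled for depth, was 221 with a 95% counting interval of 144 to 357 (fitted log2 fold change 7.76, SE 0.104, edgeR adjusted p = 3.71e-08).

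Oasl1 (NCBI gene 231655), its neighbour, was already present in LLC alone at 1.42, 1.38 and 1.39 FPKM and reached 7.13, 6.82 and 6.57 FPKM with BMSCs. Hence Oasl1 lay above Oasl2 in LLC alone and below it in LLC with BMSCs. By counts Oasl1 had the smallest rise of the 7, 4.81-fold, while by FPKM its ratio of 4.90 was above the 4.61 of Oas1g (log2 fold change 2.27, SE 0.0819, edgeR adjusted p = 6.53e-07).

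**Figure D2:**
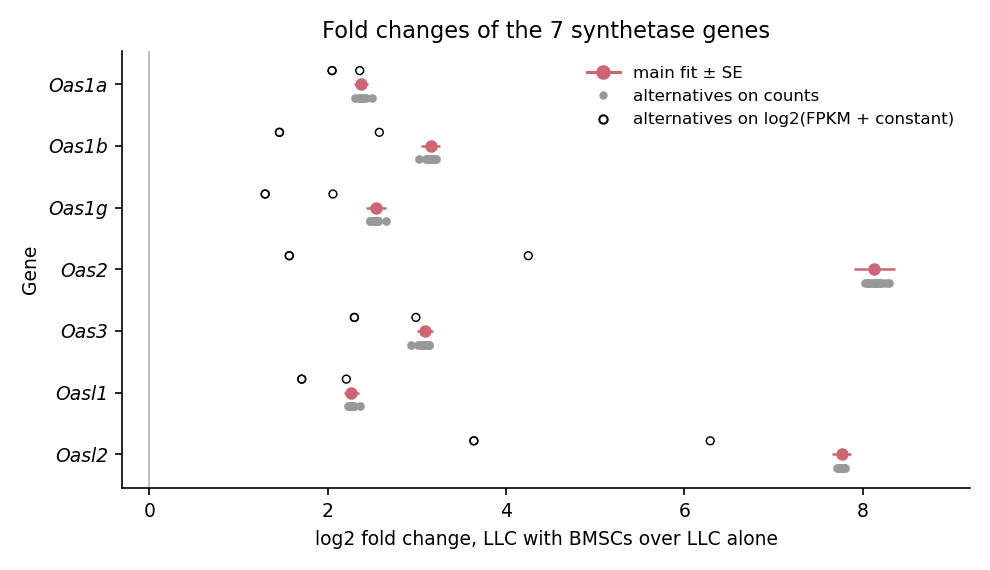
Log2 fold changes (horizontal axis, LLC with BMSCs over LLC alone) of the 7 synthetase genes (vertical axis); red points with bars are the main fit with its SE, grey points other treatments of the counts and open circles fits on log2(FPKM + 1) or log2(FPKM + 0.1). Oas2 and Oasl2 lie near 8, at 8.13 and 7.76, and the other 5 genes between 2.27 and 3.16, and for each gene the open circles lie to the left of the main fit.

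The order of the levels per length changed between the groups. In LLC alone it ran, in FPKM, from Oas1a through Oasl1, Oas3, Oas1g, Oas1b and Oasl2 to Oas2, and no neighbours in that order overlapped. In LLC with BMSCs it ran from Oas1a through Oasl2, Oas3, Oasl1, Oas1g and Oas1b to Oas2. There, Oas1g at 3.02 to 3.23 FPKM and Oas1b at 2.54 to 3.05 FPKM overlapped and could not be ordered, and the other neighbours did not overlap.

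Summed over the 7 genes, the level went from 6.18, 6.53 and 6.53 FPKM in LLC alone to 52.4, 50.5 and 50.02 FPKM in LLC with BMSCs, a ratio of 7.95 between the means. Each gene's part of that sum showed how the make-up of the family shifted. Oasl2 went from 0.885% ± 0.107 of the sum to 23.9% ± 0.279, and Oas2 from 0.156% ± 0.00501 to 3.91% ± 0.342 (SD, n = 3 each). Oas1a went from 43.9% ± 2.53 to 29.1% ± 0.868, Oasl1 from 21.8% ± 1.02 to 13.4% ± 0.252, and Oas1g from 10.6% ± 1.90 to 6.15% ± 0.102. For these 5 genes the shares did not overlap between groups (exact permutation p = 0.1 each, two-sided, the smallest possible). The share of Oas3 was 16.5% ± 1.2 and 17.9% ± 1.14 (exact permutation p = 0.2), and that of Oas1b 6.14% ± 0.685 and 5.60% ± 0.658 (exact permutation p = 0.4), both with overlapping groups. As parts of 1 total, the shares are not independent of each other.

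**Figure D3:**
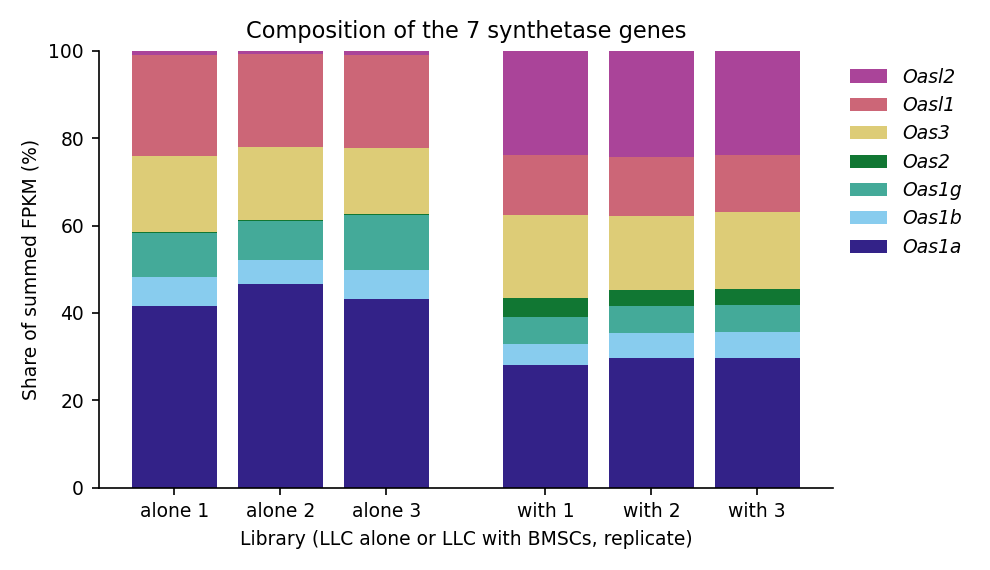
Stacked bars of each gene's share (%) of the summed FPKM of the 7 synthetase genes in each of the 6 libraries. Oasl2 takes 23.7% to 24.2% of the sum in the libraries with BMSCs and under 1% in those of LLC alone, where Oas1a takes 41.7% to 46.7%.

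Oas1a and Oas1g resemble each other so closely that reads can be divided among them. Of the windows of 100 bases in the GENCODE transcript that matches the RefSeq transcript of Oas1a, 40.9% occurred unchanged in a transcript of Oas1g, and 38.2% of those of Oas1g occurred in Oas1a. No such window of Oas1b, Oas2, Oas3, Oasl1 or Oasl2 occurred in another gene. Divided reads leave fractions in the estimated counts. The counts of Oas1g were whole numbers in 0 of the 6 libraries, those of Oas1a in 1 and those of Oas1b in 3 (tolerance 0.011), while Oas2, Oasl1 and Oasl2 had whole counts in all 6. The counts of Oas1a, Oas1b and Oas1g added together were whole in each library to within 0.01, so the fractions of these 3 genes cancelled. Their sum was 369, 297 and 413 counts in LLC alone and 2280, 2324 and 2340 with BMSCs, a log2 fold change of 2.59 (edgeR adjusted p = 1.43e-07). With all 8 Oas1 genes of the files summed, the log2 fold change was 2.30 (SE 0.0586, edgeR adjusted p = 1.46e-07), and these sums are unaffected by how reads were divided among the genes summed. How far each single Oas1 gene rose remains uncertain to the extent of this sharing. Oas3 also had whole counts in 0 of the 6 libraries, and where its fractions came from was not tested.

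Oas1g and Oas1b were also the only members of the 7 for which the files list more than 1 transcript, a RefSeq transcript and longer ones that the authors' pipeline had assembled. For Oas1g, the RefSeq transcript of 2008 bases went from 0.39, 0.35 and 0.60 FPKM in LLC alone to 1.16, 1.12 and 0.98 FPKM with BMSCs, a ratio of 2.43. The assembled transcript of 4573 bases went from 0.23, 0.24 and 0.23 to 2.07, 2.03 and 2.04 FPKM, a ratio of 8.77. By these estimates, the assembled form carried most of the increase. The estimates rest on how reads were divided, and the assembled sequences were not checked for windows shared with Oas1a. The RefSeq form held 44.8% ± 7.48 of the estimated counts of Oas1g in LLC alone and 18.6% ± 1.31 with BMSCs, with no overlap (SD, n = 3 each; exact permutation p = 0.1, two-sided). In Oas1b the RefSeq transcript of 1837 bases went from 0.173 ± 0.0321 to 0.837 ± 0.106 FPKM, and its share of the counts from 19.6% ± 4.63 to 10.5% ± 1.2, again with no overlap (exact permutation p = 0.1). The assembled transcript of 7939 bases had the largest ratio, 14.5, from 0.0733 ± 0.0416 to 1.07 ± 0.0764 FPKM, but its share of the counts overlapped between groups (exact permutation p = 0.3). The share of the one of 4544 bases overlapped as well (exact permutation p = 0.4). Since the gene length in the files follows the transcripts, it was 2711 to 3039 bases in LLC alone and 3652 to 3742 with BMSCs for Oas1g, which gave a smaller ratio by FPKM (4.61) than by counts (5.81). For Oas1b it was 3690 to 4554 and 4887 to 5098 bases, with ratios of 7.24 by FPKM and 8.91 by counts.

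**Figure D4:**
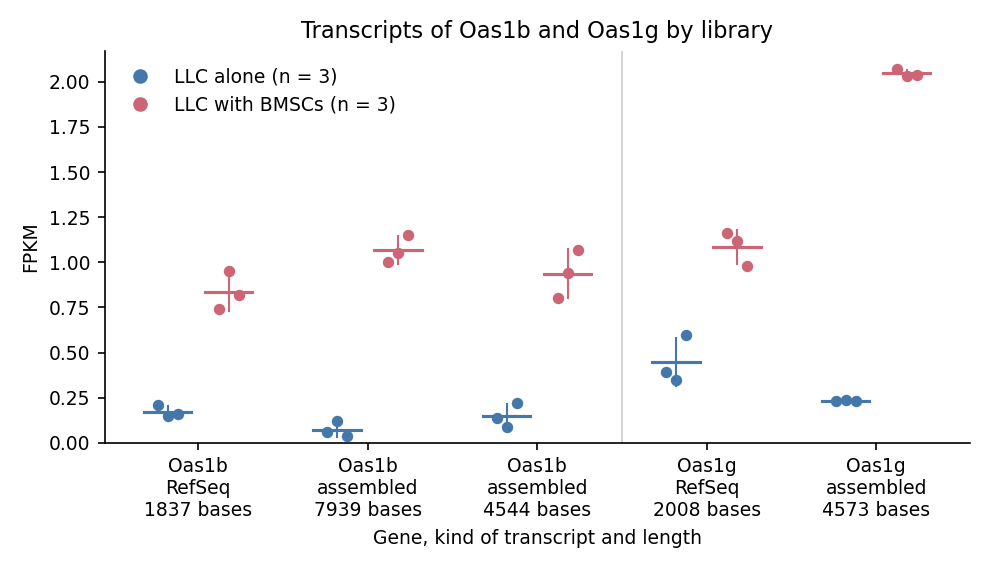
FPKM of each transcript of Oas1b and Oas1g in the 6 libraries; points are libraries, horizontal lines group means and vertical lines the SD (n = 3 per group), and labels give the kind of transcript and its length. In LLC alone the RefSeq form of Oas1g, at 0.35 to 0.60 FPKM, lies above the assembled form, at 0.23 to 0.24, and with BMSCs the assembled form lies higher, at 2.03 to 2.07 against 0.98 to 1.16.

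The list of 8 other genes held further Oas1 genes of the cluster and genes that break down 2-5A or are linked to its action. Of these 8, 4 were tested, of which 1 was higher, 1 was lower and 2 did not pass. Their median log2 fold change was 0.06 beside 0.01 over all tested genes, of which 31.5% were higher and 31.3% were lower.

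Pde12, a phosphodiesterase that breaks down 2-5A, fell from 11.6 ± 0.205 to 9.29 ± 0.311 FPKM (SD, n = 3 each; fold 0.793, edgeR adjusted p = 0.000955). Akap7, whose protein holds a domain with 2-5A phosphodiesterase activity, was at 3.88 ± 0.339 and 4.27 ± 0.0693 FPKM (edgeR adjusted p = 0.0881). Abce1, a ribosome recycling factor linked to this pathway, was at 136 ± 4.19 and 135 ± 4.14 FPKM (edgeR adjusted p = 0.662). Thus of these 3 genes only Pde12 passed, with a small change. Oas1c, which lies in the synthetase cluster and carries the response element letters farther from its start, rose 1.44-fold, from 1.42 ± 0.208 to 2.07 ± 0.0379 FPKM (edgeR adjusted p = 0.00769). The remaining Oas1d, Oas1e, Oas1f and Oas1h were at most at 0.03 FPKM in every library and were not tested.

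The list of 18 genes that sense double-stranded RNA or carry the interferon signal was tested whole. Of these, 16 were higher, against 31.5% of all tested genes, 1 (Mavs) was lower and 1 (Irf3) did not pass. Their median log2 fold change was 1.77 beside 0.01 over all tested genes. The median was also 1.77 with Zbp1, which had no counts in LLC alone, set against 3 counts per library. Stat2 and Irf9 encode parts of the complex that binds the response element. Stat2 rose from 1.76 ± 0.0666 to 21.4 ± 0.801 FPKM (11.9-fold, edgeR adjusted p = 7.59e-08). Irf9 was listed at 0.10, 0 and 0 FPKM in LLC alone and at 6.34, 4.59 and 4.48 FPKM with BMSCs (edgeR adjusted p = 2.03e-05). Both were thus higher. Irf7, a factor that amplifies the interferon response and whose translation Oasl1 restrains, rose 37.1-fold, from 0.280 ± 0.0520 to 10.5 ± 0.421 FPKM (edgeR adjusted p = 1.02e-07). Eif2ak2, which encodes the double-stranded RNA-activated kinase PKR, rose 3.24-fold, from 8.98 ± 1.88 to 32.0 ± 0.365 FPKM (edgeR adjusted p = 4.80e-06).

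**Figure D5:**
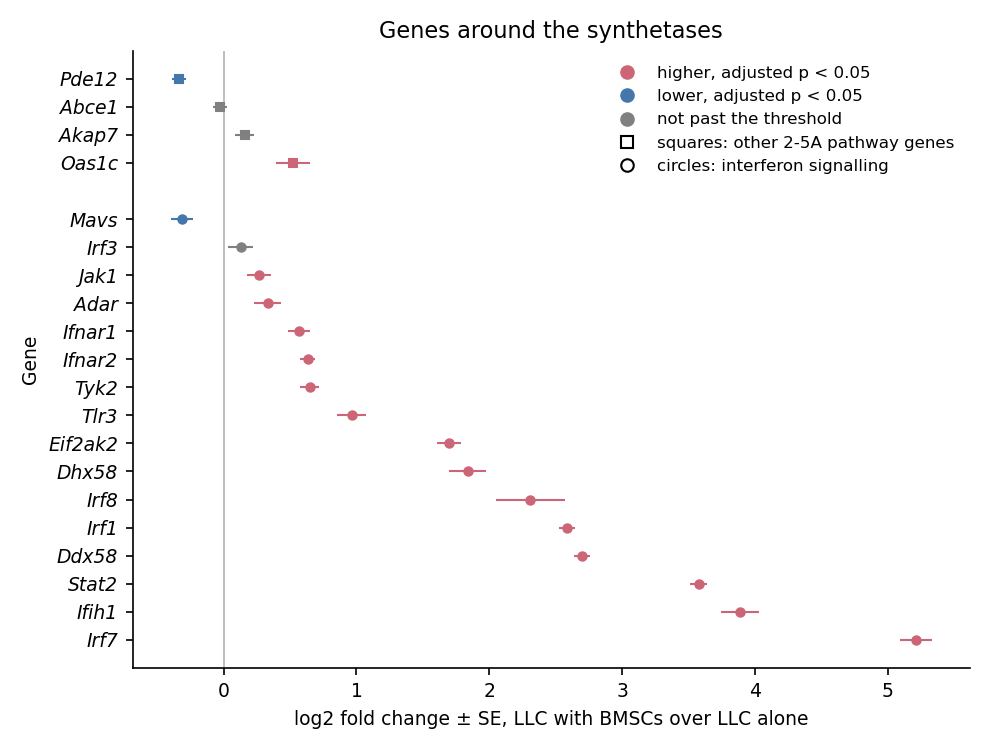
Log2 fold changes with SE (horizontal axis, LLC with BMSCs over LLC alone) of the tested genes of the pathway list (squares) and the list of interferon signalling (circles), coloured by the call; Irf9 and Zbp1, listed at 0 FPKM in at least 2 LLC alone libraries, are left out. Pde12 lies at -0.33 and Oas1c at 0.52, while Stat2 lies at 3.58 and Irf7 at 5.21.

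By a rule of likeness, the 5 genes outside the members and lists whose centred log2 CPM profile over the 6 libraries lay closest to the mean profile of the 7 were Csf2ra, Stab1, Cstf2t, Ccr1 and Mmp3, at Euclidean distances of 0.210 to 0.276. The members themselves lay farther from their mean, at distances of 1.02 (Oas1b) to 4.31 (Oasl2), because their rises differed in size. Mmp3, a matrix metalloproteinase, was the most abundant of the 5, at 31.1 ± 2.08 and 510 ± 45.1 FPKM. Stab1 was at 0.213 ± 0.0208 and 3.19 ± 0.243 FPKM, and Ccr1 at 0.01 in each LLC alone library and 0.413 ± 0.0404 FPKM with BMSCs (SD, n = 3 each). Csf2ra and Cstf2t were listed at 0 in LLC alone, so their distances depend on the prior count of 2 in the log2 CPM. Their fitted log2 fold changes were 7.97 and 7.96, against 3.89 for Stab1, 4.02 for Mmp3 and 5.41 for Ccr1.

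Some markers of other cells that a sort can carry along differed between the groups. Over all tested genes, 31.5% were higher and 31.3% were lower with BMSCs. The summed level of the 11 BMSC markers was 370 to 433 CPM (counts scaled to the library total) in LLC alone and 806 to 855 CPM with BMSCs, and 9 of 9 tested were higher, with Pdgfrb at 6.59 ± 0.978 and 8.75 ± 0.508 FPKM. Of its defining genes, Cxcl12 and Lepr stayed below 0.2 FPKM in every library. Cxcl12, not tested, had 0 counts in each LLC alone library and 12, 7 and 8 counts with BMSCs. Col1a1 had 2, 4 and 4 counts in LLC alone and 586, 499 and 477 with BMSCs (edgeR adjusted p = 3.29e-07). Ly6a was 7.10-fold and Nt5e 3.89-fold higher by counts. Thy1, also on this list, was at most at 0.03 FPKM and was not tested. The larger part of the summed BMSC level, and of its rise, came from Col3a1. This gene was already at 41.2 ± 3.82 FPKM in LLC alone and reached 100 ± 1.48 FPKM with BMSCs (edgeR adjusted p = 7.56e-06). The neutrophil list went from 0.436 to 0.720 CPM to 17.7 to 20.3 CPM with 5 of 5 tested higher, of which S100a9 reached 22.4 ± 2.90 FPKM, while Ly6g was at most at 0.11 FPKM. The macrophage list went from 24.2 to 29.1 CPM to 30.8 to 33.3 CPM, with 5 of 7 tested higher and 1 lower, and a median log2 fold change of 2.22. Its defining Ptprc, the common leukocyte antigen, rose 15.0-fold, from 0.03 ± 0.02 to 0.45 ± 0.04 FPKM (edgeR adjusted p = 2.38e-05). Adgre1, the macrophage antigen F4/80, was listed at 0 in each LLC alone library and at 0.42, 0.56 and 0.45 FPKM with BMSCs (edgeR adjusted p = 4.95e-05), and C1qa was at most at 0.07 FPKM. Most of the summed level came from Cd14, at 9.49 ± 0.970 and 10.1 ± 0.866 FPKM (edgeR adjusted p = 0.587), and Cd68, which fell from 5.55 ± 0.509 to 3.03 ± 0.356 FPKM (edgeR adjusted p = 0.000501). The list of plasmacytoid dendritic cells, known for strong interferon output, went from 114 to 124 CPM to 166 to 175 CPM. Of its 2 tested genes, Bst2 was higher, at 11.7 ± 0.801 and 90.5 ± 6.86 FPKM (edgeR adjusted p = 2.6e-07). Tcf4 did not pass, at 16.1 ± 0.852 and 14.7 ± 0.541 FPKM (edgeR adjusted p = 0.0893), so the rise in the sum came from Bst2. The defining Siglech was at or below 0.01 FPKM, and Ly6d and Ccr9 were at or below 0.04 FPKM. None of the lymphocyte genes was tested and their sum was below 0.4 CPM in every library. The endothelial list had 0 of 1 tested gene called. Its 4 genes summed to 0.690 to 0.877 CPM in LLC alone and 0.904 to 1.03 CPM with BMSCs, without overlap. Its defining Cdh5, not tested, had 2, 1 and 1 counts in LLC alone and 10, 8 and 14 with BMSCs. Beside these, the summed counts of the 7 synthetase genes were 16.3 to 17.1 CPM in LLC alone and 150 to 159 CPM with BMSCs. What part such cells had in the rise of the synthetase genes was not tested.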

How the data were processed

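RNA sequencing of sorted LLC cells was analysed in 6 libraries, 3 per group, grouped by the sample labels. Per the paper's methods, mRNA was selected with oligo-dT beads and read as paired ends of 100 bases. The submitters' processing notes name HISAT, StringTie, Cufflinks, GATK and the genome build mm8, with no roles or versions. Strand use in counting is not given in the sources used here. For genes and for transcripts the authors deposited estimated counts without normalization. In these, 21.9% to 23.2% of the genes listed in a library were not whole numbers. Dividing reads among the genes they match leaves such fractions, and other sources of fractions were not tested. The authors also deposited FPKM values, which are scaled to the length of the transcript and the total of the library, and a gene length that varies between libraries. The series table of FPKM equalled the library files.

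Estimated counts were rounded and tested in edgeR 4.0.16 (R 4.3.3) with TMM, its default filter, its quasi-likelihood test between the 2 groups, and Benjamini-Hochberg adjustment over 13353 genes at a threshold of 0.05. Each standard error is the size of the log2 fold change divided by the root of the F statistic. The biological coefficient of variation was 9.92%. Levels are FPKM. CPM sums used the library totals of the tested genes scaled by TMM, and profiles log2 CPM with a prior count of 2. Counts of 33476347 to 46189113 per library put 3 counts well under 1 CPM. The test was checked on simulated counts in which far fewer genes changed than were called here.

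The 7 members and all lists were chosen with earlier results of these data known. Genes named are the 7 members, Abce1, Pde12, Stat2, Irf9, Irf7, Eif2ak2, the 5 nearest profiles and defining markers. Some other genes of these pathways are not reported here. Oas1c, Akap7, Mavs, Irf3, Zbp1 and the Oas1 genes at the detection limit were added after their values were seen, as single members of short lists. So were the markers Vim, S100a9, Cd14, Cd68, Col1a1, Col3a1, Ly6a, Nt5e, Thy1, Bst2, Tcf4, Ly6d and Ccr9 beside their lists. Alternatives were DESeq2 1.42.0, limma 3.58.1 on log2(FPKM + 1) and log2(FPKM + 0.1), other scalings and filters, leaving out each library, a replicate block, the closest libraries of each group summed, a length trend removed, and a stricter threshold. The sum of Oas1a, Oas1b and Oas1g was added after seeing the data. Promoters are from RefSeq (GRCm38.p6) and transcripts from GENCODE M21. No coordinates were converted between builds.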

Additional observations from a re-analysis of the deposited data

How the results depend on the processing

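All 7 members were called higher under every alternative that could test them. With at least 10 counts in every library, Oas2 and Oasl2 were not tested and 5 of 5 were called. The lowest log2 fold changes came with limma on log2(FPKM + 1), a scale that understates low genes: 1.57 for Oas2, 3.64 for Oasl2, 1.46 for Oas1b, 1.30 for Oas1g, 2.05 for Oas1a, 2.30 for Oas3 and 1.71 for Oasl1. On counts the range was 8.03 to 8.29 for Oas2 and 7.71 to 7.80 for Oasl2, and 2.23 to 3.22 over the other 5 genes. The largest adjusted p of any member was 8.69e-05 (Oas1g). At the stricter threshold 910 genes were higher and 723 lower, in place of 4210 and 4183. Leaving out each library in turn gave 3617 to 4736 higher and 3581 to 4539 lower. The change in the share of Oas3 was 1.4 percentage points by FPKM and -2.2 by estimated counts, which weight long transcripts more. With the replicate block, 4161 genes were higher and 4058 lower and all 7 members were called. Libraries of the same number did not deviate together (correlations 0.0762, -0.106 and 0.0572, and 1 of 3 correlated best with its own number). With 3 libraries per group this cannot exclude a pairing, and the labels do not say what the numbers share. Few counts limit Oas2 and Oasl2 in LLC alone.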
